A study of Mus musculus with 7 samples.

Results

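The 10 genes described here encode 6 matrix metalloproteases (Mmp2, Mmp3, Mmp7, Mmp9, Mmp11 and Mmp14) and the 4 tissue inhibitors of metalloproteases (Timp1, Timp2, Timp3 and Timp4), out of 17016 named genes on the array. They were chosen from the array's genes by family, with the log2 ratios of PB-NICD against control prostates in view, so every value of these 10 genes in that contrast is a description and carries no test. All 10 had a probe, 13 probes in all, and 7 of the 10 passed the filters of the fit across all genes. The study measured RNA from 7 mouse prostates of the C57Bl/6 strain, each against 1 universal mouse reference RNA on a 2-colour Agilent array. The 4 control samples came from mice with the ROSA(N1IC) allele, labelled wild-type for the Notch1 intracellular domain (NICD). The 3 PB-NICD samples, ARR2PB-Cre;ROSA(N1IC), carry the same allele together with a Cre recombinase under the prostate promoter ARR2PB, which switches on NICD, the active part of the Notch1 receptor. These mice develop prostatic intraepithelial neoplasia (PIN). The labels used here give no ages, and do not say whether each sample was 1 animal, so an adjusted p measures only the spread between these samples. The RNA is that of whole prostate while Cre follows a prostate promoter, and in such bulk samples fewer cells of a type and less RNA per cell cannot be told apart.

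Matrix metalloproteases are zinc enzymes that cut collagens, laminins, proteoglycans and proteins shed from the cell surface. They are made as inactive proenzymes: some are activated by furin inside the cell, others by plasmin, by serine proteases or by another metalloprotease outside it. The tissue inhibitors bind the active site, and some also bind proenzymes. In the prostate most of these enzymes are made by stromal and inflammatory cells, whereas Mmp7 (matrilysin) is known as an epithelial enzyme of glandular tissues. The question put here is how transcripts of these enzymes and inhibitors differ once NICD is switched on.

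The promoters of Mmp7 and Timp4 are shown because these were the members whose log2 ratios were separate between the groups with all 7 arrays counted. The share of all items that separate in this way was not counted. Separation of the groups, here and below, is therefore a description and says nothing of how unusual a gene is. Each line holds the 250 bases before the RefSeq start (assembly GRCm38.p6), 5′ to 3′ on the strand of the gene. Mmp7 has 2 starts in the RefSeq table and the upstream one is shown, chr9:7691840-7692089 on the plus strand. Timp4 is at chr6:115252206-115252455 on the minus strand. Mmp3 is added as the other metalloprotease on chromosome 9 with a window in the table, chr9:7445572-7445821 on the plus strand. Capitals mark the AP-1 motif TGANTCA and the TATA motif TATAAA.
Mmp7: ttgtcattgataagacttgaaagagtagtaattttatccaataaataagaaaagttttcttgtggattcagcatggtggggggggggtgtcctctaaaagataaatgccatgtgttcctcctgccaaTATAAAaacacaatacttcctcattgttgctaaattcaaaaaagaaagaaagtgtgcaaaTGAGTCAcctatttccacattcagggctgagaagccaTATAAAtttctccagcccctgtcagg
Timp4: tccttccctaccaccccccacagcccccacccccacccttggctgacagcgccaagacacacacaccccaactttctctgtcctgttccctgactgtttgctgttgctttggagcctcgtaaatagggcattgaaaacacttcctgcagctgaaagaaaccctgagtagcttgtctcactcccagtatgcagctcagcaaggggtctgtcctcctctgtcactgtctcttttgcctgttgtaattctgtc
Mmp3: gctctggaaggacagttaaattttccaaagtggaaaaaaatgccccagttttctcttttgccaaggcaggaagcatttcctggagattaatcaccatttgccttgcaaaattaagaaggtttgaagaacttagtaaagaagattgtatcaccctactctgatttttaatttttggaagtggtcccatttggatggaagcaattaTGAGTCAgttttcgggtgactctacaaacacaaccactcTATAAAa

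Mmp7 held TGANTCA with its first base 63 bases before the start, and TATAAA at 123 and 26 bases before it. Mmp3 held TGANTCA at 46 and TATAAA at 7 bases before the start. Timp4 held neither. The motif TGGGAA, the core bound by Rbpj, the DNA-binding partner of NICD, was absent from these 3 windows on both strands. The window of the second Mmp7 start held it once, 113 bases before that start. That window, chr9:7692091-7692340, lies downstream of the upstream start, in sequence transcribed from it. The table held windows for 8 members, and Mmp2 and Mmp9 had no entry in it. Among the other 5 members with a window, Timp1 had 1 TGGGAA, 158 bases before its start, and none had TGANTCA or TATAAA. Searched on both strands and with no overlap between motifs in the windows shown, TGANTCA occurred in 6.75%, TATAAA in 12.4% and TGGGAA in 21.6% of all 32851 windows of this length. A match of letters is not a bound site, and a window without one says nothing of the factor.

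A value below is the log2 ratio of prostate sample over reference after background correction and loess within the array, and a difference is taken as PB-NICD less control, between group means. The sample channel was dim, with 44.8% to 66.8% of probes well above background per array. The array labelled PB-NICD 1 stood apart: its median absolute log2 ratio was 0.0388, against 0.227 to 0.27 on the controls and 0.284 to 0.29 on the other two PB-NICD arrays, so its ratios lie nearer to 0. Notch1 itself was at 0.05, 0.30, 0.76 and 0.67 on the controls and 0.64 on PB-NICD 1, from a spot marked as an outlier. It was not well above background on controls 1 and 2. The remaining PB-NICD arrays had 2.63 and 2.74. PB-NICD 1 thus lay within the control range for the switched-on gene, but above controls 1 and 2, which shared its slide. Where the probe lies relative to the transgene was not determined, and members are given with and without PB-NICD 1. The prostate secretory genes differed in how they behaved. Pbsn, the secreted protein probasin, was at 10.1 to 11.7 on the controls and 9.06 to 10.1 on PB-NICD arrays. Sbp, a spermine-binding protein of the secretion, was at 9.50 to 11.5 on the controls but at 0.54, 4.75 and 9.44 on PB-NICD 1 to 3. Control 1, control 2 and PB-NICD 1 shared slide 1, and the other 4 arrays shared slide 2.

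Mmp7, which cleaves matrix proteins and sheds surface proteins of epithelial cells, had the largest difference between the groups of the members fitted. With outlier spots kept, its log2 ratio was 6.19, 5.05, 6.71 and 6.69 on controls 1 to 4, and 2.59, 4.03 and 4.85 on PB-NICD 1 to 3. Every PB-NICD value lay below every control value. The control mean was 6.16 ± 0.78 (SD, n = 4) and the PB-NICD mean 3.82 ± 1.14 (SD, n = 3), a difference of -2.34. The spots of controls 1 and 2 were marked as outliers in the reference channel, and without them the difference was -2.88 ± 0.56 (SE, n = 2 and 3), the 31st lowest of 16939 items.

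The size of this difference, and whether the groups separate, depended on the scale. The unnormalised sample signal of the Mmp7 spot was 1895, 896, 5028 and 4142.5 on the controls and 916.5, 1330 and 1724 on the PB-NICD arrays, so control 2 lay below all 3 PB-NICD arrays before normalisation. In the authors' deposited values Mmp7 was at 6.58, 5.49, 6.42 and 6.40 on the controls and 4.31, 3.79 and 4.53 on the PB-NICD arrays, again separate, and the difference was -2.01. With outlier spots kept it was -3.03 within slide 1, -2.26 within slide 2 and -1.72 without PB-NICD 1. Scaling the arrays to equal spread turned its sign, to 1.21 with an SE of 3.66, since that step multiplies the ratios of PB-NICD 1.

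**Figure D1:**
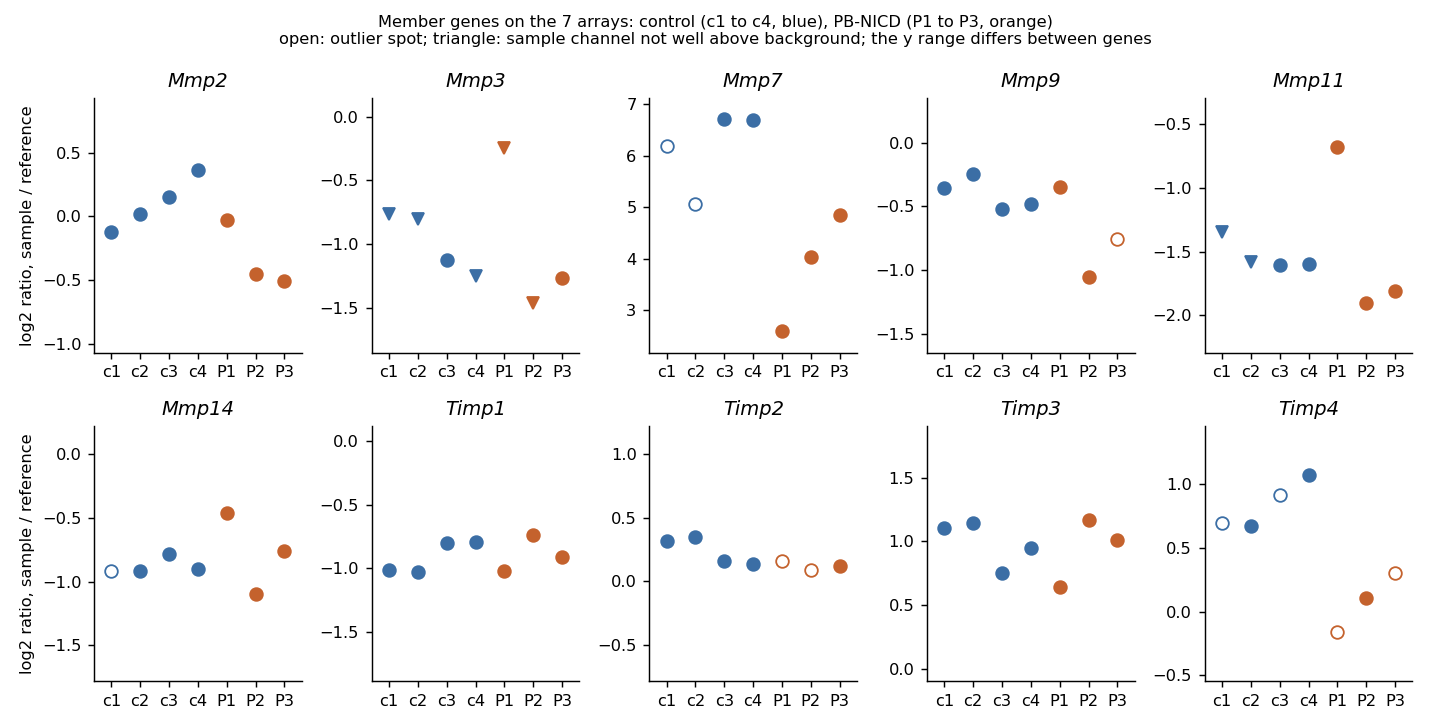
Log2 ratio of sample over reference (y axis, range differing between panels) for each of the 10 members on the 4 control (blue) and 3 PB-NICD (orange) arrays (x axis), 1 probe per gene; open symbols are outlier spots and triangles are spots not well above background in the sample channel. Mmp7 and Timp4 are separate between the groups, Mmp2 overlaps through PB-NICD 1, and PB-NICD 1 sits above the other arrays for Mmp3 and Mmp11.

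Most transcripts with a control mean above 4, a class that includes Mmp7 but has lower medians of 4.76 to 5.23 on the controls, were lower in PB-NICD too. Of 77 items with a control mean above 4 and outlier spots kept, 66 had a lower mean in PB-NICD, with a median difference of -1.63, and of -1.23 without PB-NICD 1. The class was picked by the same control means that are subtracted, which by itself favours lower values in PB-NICD. How much of the lowering this makes was not tested. The other classes of control mean used below were picked in the same way. Mmp7 was 29th from the lowest of these 77, and 32nd without PB-NICD 1. The median of the 77 items, set against their own control means, was -2.49, -1.21 and -1.14 on PB-NICD 1 to 3. The part that this general lowering of transcripts with high ratios to the reference has in the difference of Mmp7 was not tested. Over all 7 arrays, with each gene centred on its control mean, the 3 of 13111 named genes nearest to Mmp7 were Ang2, Egf and Phyh, at root mean square distances of 0.36, 0.38 and 0.39 on the log2 scale. Ang2 encodes a secreted ribonuclease of the angiogenin family, Egf the epidermal growth factor and Phyh a peroxisomal hydroxylase. Their differences were -2.18, -2.43 and -2.72. This likeness was looked up after the values of Mmp7 were seen.

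**Figure D2:**
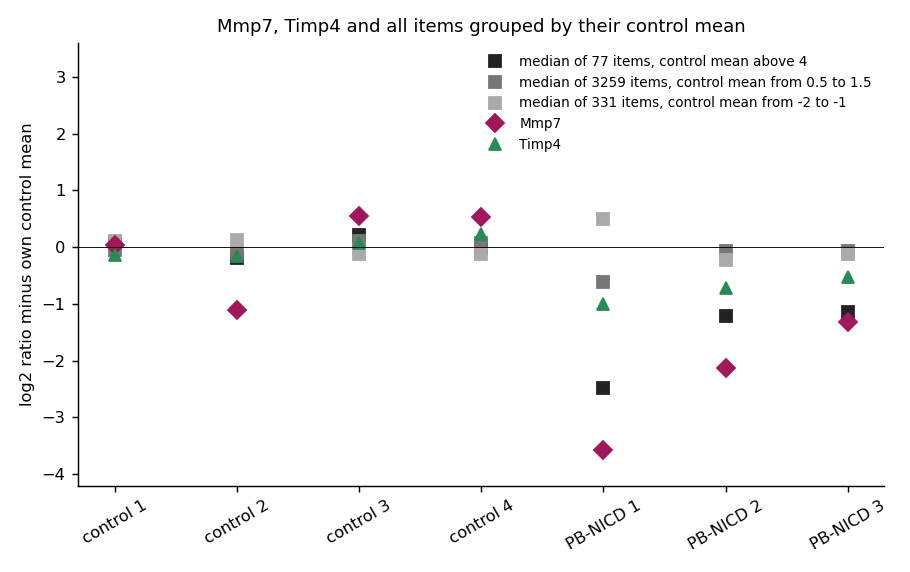
Log2 ratio minus the gene's own control mean (y axis) by array (x axis) for Mmp7 (diamonds), Timp4 (triangles) and the medians of all items in 3 classes of control mean (squares), outlier spots kept. On PB-NICD 1 the classes above 0 lie lower and the class from -2 to -1 lies higher than on the other arrays, and on all 3 PB-NICD arrays the 77 items with a control mean above 4 have medians of -1.14 to -2.49.

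The gelatinases Mmp2 and Mmp9 cut denatured collagen and the type IV collagen of basement membranes. Mmp2 was at -0.12, 0.02, 0.15 and 0.37 on the controls and at -0.03, -0.45 and -0.51 on the PB-NICD arrays. PB-NICD 2 and PB-NICD 3 lay below all controls, and PB-NICD 1 lay between controls 1 and 2. The difference was -0.43 ± 0.17 (SE, n = 4 and 3). It was 0.03 within slide 1, -0.74 within slide 2 and -0.59 without PB-NICD 1. Mmp2 signals were low in the sample channel, 76 to 180 over backgrounds of 51 to 57.5, and the offset of 50 added before taking logs draws such ratios together.

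Mmp9, which is stored in neutrophil granules and made by macrophages and epithelium, was at -0.35, -0.24, -0.52 and -0.48 on the controls. On PB-NICD 1 and PB-NICD 2 it was at -0.35 and -1.05, and on PB-NICD 3 at -0.76 from an outlier spot. Again PB-NICD 2 and PB-NICD 3 lay below all controls and PB-NICD 1 among them. The difference was -0.30 ± 0.21 (SE, n = 4 and 2). It rested on PB-NICD 2: without that array it was 0.05, and without PB-NICD 1, where PB-NICD 2 alone was left, -0.65. With outlier spots kept these were -0.16 and -0.51. In the authors' deposited values all 3 PB-NICD arrays, at -0.87, -0.996 and -0.74, lay below the controls, which ran from -0.50 to -0.33. The second Mmp9 probe, with 10 spots per array, stayed near background on all 7 arrays. Of 7 neutrophil markers on the array, S100a8, S100a9 and Camp gave no signal well above background, whereas Mpo, Elane and Cxcr2 were above it on all 7 arrays and Ltf on 2 controls and 3 PB-NICD arrays. The 6 macrophage markers tested had a median difference of 0.02 and none passed the test.

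The membrane-bound protease Mmp14 activates Mmp2 at the cell surface, with Timp2 as the bridge. On its brighter probe it was at -0.92, -0.92, -0.78 and -0.91 on the controls, the first from an outlier spot, and at -0.46, -1.10 and -0.76 on the PB-NICD arrays. The difference was 0.10 ± 0.18 (SE, n = 3 and 3), and -0.06 without PB-NICD 1. In the processed signals it was larger, 0.45 with an SE of 0.107, and 0.63 with outlier spots kept as well. The other Mmp14 probe was at -0.56, -0.71, -0.73 and -0.76 on the controls and at -0.19, -0.68 and -0.46 on the PB-NICD arrays, the -0.68 from an outlier spot. The difference there was 0.25 with outlier spots kept. On both probes PB-NICD 1 and PB-NICD 3 lay above all controls, while PB-NICD 2 lay below them on the first probe and among them on the second.

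The stromelysins were near the limit of the sample channel. Mmp11, a stromal enzyme that furin activates inside the cell, was at -1.35, -1.58, -1.60 and -1.60 on the controls and at -0.68, -1.91 and -1.81 on the PB-NICD arrays. It was not well above background on controls 1 and 2. The difference was 0.07 ± 0.27 (SE, n = 4 and 3), made of 1 high and 2 low arrays, and it was -0.32 without PB-NICD 1. The class of 331 items with control means from -2 to -1 moved in the same way, with a median of 0.49, -0.22 and -0.13 on PB-NICD 1 to 3 relative to their own control means. Mmp3, which cuts proteoglycans and activates other proenzymes, was at -0.77, -0.80, -1.12 and -1.25 on the controls and at -0.24, -1.46 and -1.27 on the PB-NICD arrays. It was well above background on control 3 and PB-NICD 3 alone and was not tested, so no difference is given for it.

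Among the inhibitors, Timp4, the family member with the most restricted tissue pattern, was the one whose ratios were separate between the groups. With outlier spots kept, Timp4 was at 0.69, 0.67, 0.91 and 1.07 on the controls and at -0.16, 0.11 and 0.31 on the PB-NICD arrays. The control mean was 0.84 ± 0.19 (SD, n = 4) and the PB-NICD mean 0.09 ± 0.23 (SD, n = 3), a difference of -0.75. It was -0.84 within slide 1, -0.78 within slide 2 and -0.63 without PB-NICD 1. The spots of controls 1 and 3 and of PB-NICD 1 and PB-NICD 3 were marked as outliers. Without them 2 control values and 1 PB-NICD value were left, so Timp4 was not among the 7 members fitted. In the authors' deposited values it was at 0.72 to 0.90 on the controls and 0.00 to 0.16 on the PB-NICD arrays. The unnormalised sample signals overlapped, at 5047, 6465.5, 14431 and 13844 against 6711.5, 17789 and 13962. In the sample channel alone after normalisation PB-NICD 2, at 14.97, lay among the controls, which ran from 14.80 to 15.28 on the log2 scale.

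The median difference of the 3259 items with control means from 0.5 to 1.5, the class that holds Timp4, was -0.25, and -0.07 without PB-NICD 1. The 3 named genes nearest to Timp4 over the 7 arrays were Ssr1, Anxa6 and Srp68, at distances of 0.05, 0.06 and 0.07. Ssr1 encodes a subunit of the translocon-associated complex of the endoplasmic reticulum, Anxa6 an annexin and Srp68 a subunit of the signal recognition particle. Their differences were -0.76, -0.80 and -0.70, and this list too was looked up after the values of Timp4 were seen.

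**Figure D3:**
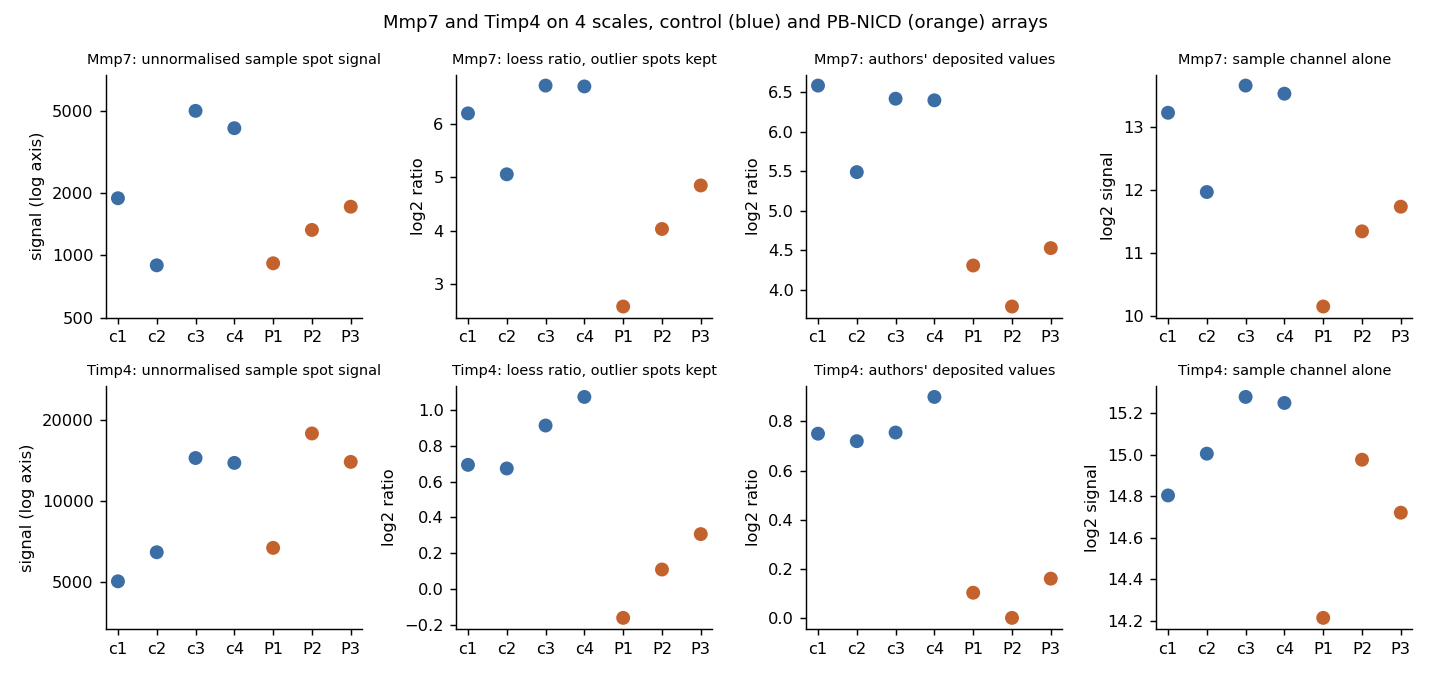
Mmp7 (top) and Timp4 (bottom) on the 4 control (blue, c1 to c4) and 3 PB-NICD (orange, P1 to P3) arrays as unnormalised sample spot signal on a log axis, log2 ratio after loess, the authors' deposited log2 values and the normalised log2 signal of the sample channel alone. The groups separate in both kinds of ratio for both genes, and overlap in the unnormalised signal, where control 2 has the lowest Mmp7 signal, 896.

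The other inhibitors did not separate by group. Timp1, which binds pro-Mmp9, was at -1.02, -1.03, -0.80 and -0.79 on the controls and at -1.03, -0.74 and -0.91 on the PB-NICD arrays on its brighter probe, a difference of 0.02 ± 0.13 (SE, n = 4 and 3), and of 0.09 without PB-NICD 1. Its values followed the slide on the controls, lower on slide 1 than on slide 2. The dimmer Timp1 probe ran from -1.83 to -1.22 on the controls and was at -0.72, -1.83 and -1.74 on the PB-NICD arrays, with PB-NICD 1 high as for Mmp11.

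Timp2, the bridge between Mmp14 and pro-Mmp2, was at 0.31, 0.34, 0.16 and 0.13 on the controls and, with outlier spots kept, at 0.16, 0.09 and 0.12 on the PB-NICD arrays. The difference of -0.12 was -0.17 within slide 1, -0.04 within slide 2 and -0.13 without PB-NICD 1. In the authors' deposited values the groups overlapped, at 0.19 to 0.24 against 0.17 to 0.27. Timp3, which binds to the matrix and also inhibits ADAM proteases, was at 1.11, 1.14, 0.75 and 0.95 on the controls and at 0.64, 1.17 and 1.01 on the PB-NICD arrays. The difference was -0.05 ± 0.16 (SE, n = 4 and 3), with PB-NICD 1 the lowest array, and 0.10 without it.

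Over the whole array, 2.70% of the 16939 items passed an adjusted p of 0.05 (limma with Benjamini-Hochberg adjustment), 0.407% higher and 2.30% lower in PB-NICD. Of the 7 members fitted, 1 (Mmp7, lower) passed, a count from which nothing is read since the genes were chosen with this contrast in view. The 7 had a median difference of -0.05, equal to the median of -0.05 over all items, with 3 above 0 and 4 below. Which members passed moved with the processing, and for the same reason nothing is read from any of the member calls below. With outlier spots kept, Timp4 joined Mmp7 among 9 members fitted, where 3.26% of all items passed, and with processed signals in addition Mmp14 did so too, where 7.13% passed. Mmp2 joined Mmp7 without PB-NICD 1, where 6.9% of all items passed, and within slide 2, where 6.17% did. Slide 1 holds a single PB-NICD array and is not read for calls. In the authors' deposited values Mmp2, Mmp7 and Mmp9 passed, where 20.8% of all items did. With outlier spots left out, no member passed without any 1 of the controls, or without PB-NICD 2. Mmp7 has no value on controls 1 and 2 there, and its difference was -2.88 without either. With outlier spots kept, Mmp7 passed without control 2, and no member did without control 1, 3 or 4 or PB-NICD 2. Across the alternatives listed in the closing section, the difference was negative in 32 of 33 for Mmp7, 13 of 13 for Timp4, 33 of 35 for Mmp2 and 33 of 35 for Mmp9. All 13 for Timp4 keep outlier spots together with another choice and were chosen after seeing the data. Scaling between arrays, which turned the sign of Mmp7, is not among them. For Timp1 and Timp3 the sign was kept in 21 and 20 of 35.

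**Figure D4:**
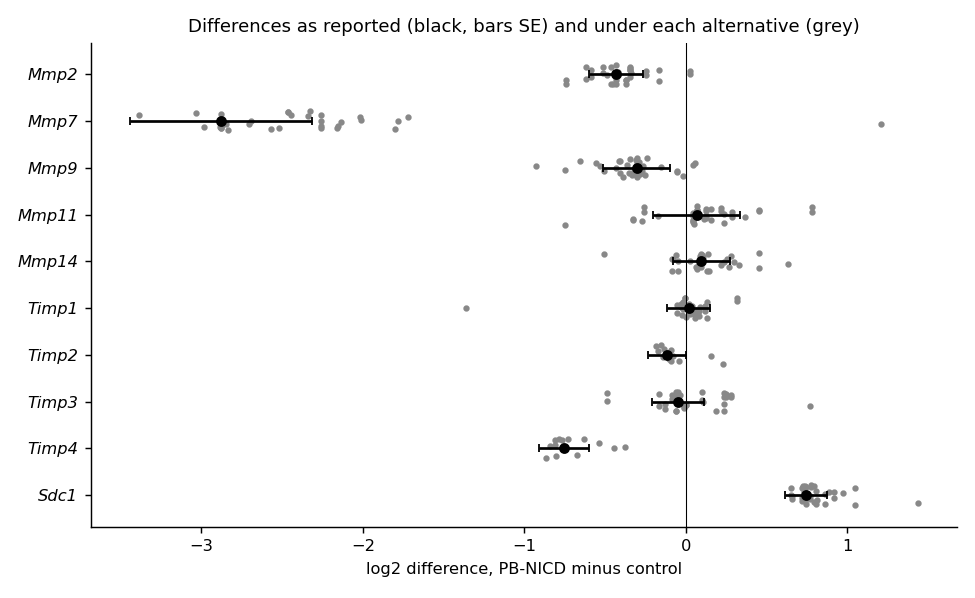
Log2 difference, PB-NICD minus control (x axis), of 9 members and Sdc1 (y axis) as reported (black, bars 1 SE from limma, with outlier spots kept for Timp2 and Timp4) and under each alternative (grey). Mmp7 lies between -3.39 and 1.21 with a single value above 0, Timp4 between -0.86 and -0.38, and Timp1 and Timp3 on both sides of 0. The alternatives for Timp2 and Timp4 are fewer, all keep outlier spots, and were chosen after seeing the data.

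For the 3 members with the largest differences among those with values on all 7 arrays, the nearest genes were sought in the same way among 7533 named genes, without outlier spots. Mmp2 lay nearest to N4bp2, Cpa1 and Dcaf10, at distances of 0.08, 0.12 and 0.12. Mmp11 lay nearest to Slc11a1, Adam8 and Rpl39l, at 0.08, 0.09 and 0.10. Adam8, a metalloprotease of myeloid cells, was at -0.22 on PB-NICD 1 and at -1.30 and -1.21 on the other two, the same array pattern as Mmp11. Its probe was well above background on only 1 control and 2 PB-NICD arrays. The class of items with control means from -2 to -1 showed this array pattern too, so it is not particular to these genes. Timp3 lay nearest to Man1b1, Scd2 and Snw1, at 0.06, 0.07 and 0.07.

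Of the other genes of the protease system, 61 were tested in 5 lists and 1 passed the test, where 2.70% of all 16939 items did. The count is not above that share, the lists were chosen with earlier results known, and nothing is read from it. The gene was Sdc1 (syndecan-1), a heparan sulfate proteoglycan of epithelial surfaces that Mmp7 is known to shed. Sdc1 was at -0.02, -0.01, 0.17 and -0.07 on the controls and at 0.64, 0.72 and 0.94 on the PB-NICD arrays. The groups did not overlap, and PB-NICD 1 lay with the other two. Sdc1 rose by 0.75 ± 0.13 (SE, n = 4 and 3; limma adjusted p = 0.0161). The adjusted p ran from 0.000152 to 0.803 over the alternatives, those that keep outlier spots together with another choice left out, and was 0.0608, 0.061 and 0.0678 without control 1, 2 or 4. It was 0.00524 without PB-NICD 1, and the difference was positive, 0.65 to 1.44, in all 35 alternatives.

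The list of other inhibitors and binding partners had 9 of 14 genes tested, with 1 higher and none lower past the threshold. Its highest difference was that of Lcn2, a lipocalin that binds Mmp9, at -0.04, 0.04, 0.23 and 0.24 on the controls and 0.16, 1.46 and 1.44 on the PB-NICD arrays. The Lcn2 difference was 0.90 ± 0.29 (SE, n = 4 and 3; limma adjusted p = 0.158), with PB-NICD 1 among the controls. Its lowest was that of Cd44, a hyaluronan receptor that can hold Mmp7 and Mmp9 at the surface, at 0.77, 0.89, 0.11 and 0.76 against -0.01, -0.07 and -0.18. The Cd44 groups did not overlap, and the difference was -0.72 ± 0.19 (SE, n = 4 and 3; limma adjusted p = 0.086).

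Among the remaining 4 lists no gene passed the test. Of 17 other matrix metalloproteases 15 were on the array and 5 were tested, with a median difference of -0.10. Mmp10, Mmp16, Mmp19 and Mmp20 gave no signal well above background, nor were Mmp12, Mmp13, Mmp25 and Mmp28 on any control. Mmp23, the one of lowest p, differed by -0.17 ± 0.15 (SE, n = 3 and 3; limma adjusted p = 0.713). Mmp15, a membrane-type enzyme, had the highest difference, 0.35 ± 0.68 (SE, n = 4 and 3), with PB-NICD 1 at 0.57 and the other two at 3.38 and 3.32.

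Of 21 ADAM and ADAMTS genes, which encode sheddases and secreted proteoglycan-cutting enzymes, 17 were tested, 11 above and 6 below 0, with a median difference of 0.04. Adam15 had both the lowest p and the highest difference, 0.40 ± 0.20 (SE, n = 4 and 3; limma adjusted p = 0.413). Adam9 had the lowest difference, -0.18 ± 0.23 (SE, n = 4 and 2).

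Of 23 activating proteases and their inhibitors 17 were tested, with a median difference of -0.04, and 5 had an unadjusted p below 0.05 in limma. The lowest p was that of Furin, the protease that activates Mmp11 and Mmp14, at 1.51, 1.64, 1.64 and 1.65 on the controls and 0.67, 1.11 and 1.27 on the PB-NICD arrays. The groups did not overlap, and the difference was -0.59 ± 0.16 (SE, n = 4 and 3; limma adjusted p = 0.0891). The lowest difference was that of Tmprss2, an androgen-regulated serine protease of the luminal surface, at -2.07 ± 0.78 (SE, n = 2 and 3; limma adjusted p = 0.262). It was at 4.77 and 5.18 on controls 2 and 4 and at 1.08, 3.64 and 4.01 on the PB-NICD arrays. Its control mean of 4.98 was also above 4. The highest difference was that of Spint1, an inhibitor of such surface proteases, at 0.16 ± 0.46 (SE, n = 2 and 2).

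Of 15 matrix and surface substrates 13 were tested, 11 of them below 0, with a median difference of -0.22, and 2 had an unadjusted p below 0.05. The median of this list stayed between -0.34 and 0.09 over the alternatives, so its sign was not kept under all of them. Nid1, the basement membrane protein nidogen, had the lowest p, with a difference of -0.40 ± 0.14 (SE, n = 4 and 3; limma adjusted p = 0.197). Spp1, the secreted phosphoprotein osteopontin that several metalloproteases cut, had the lowest difference, -0.45 ± 0.28 (SE, n = 4 and 3).

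**Figure D5:**
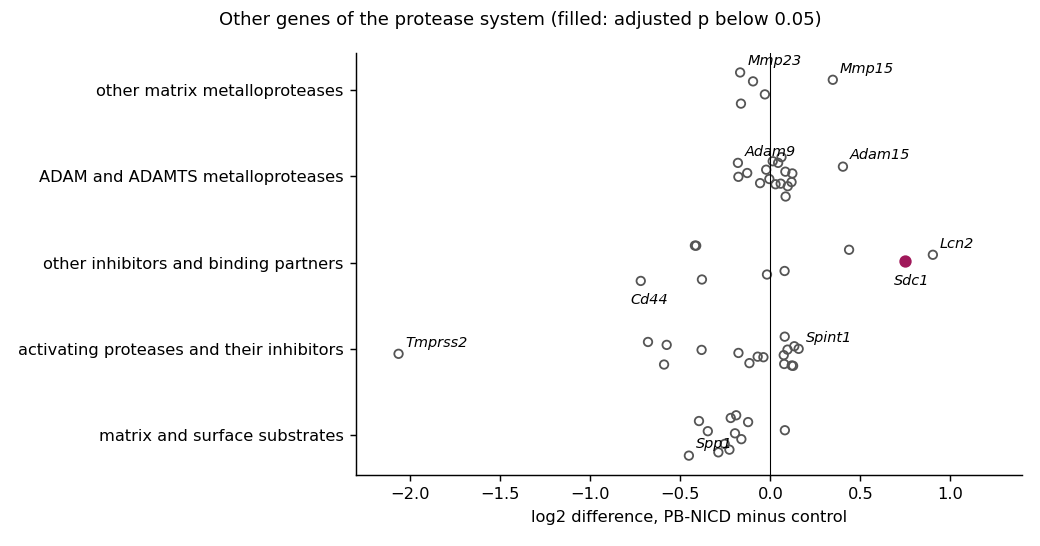
Log2 difference, PB-NICD minus control (x axis), of each tested gene in the 5 lists of other genes of the protease system (y axis, 1 point per gene, vertical scatter without meaning); the highest and lowest gene of each list is named, save for the substrates, where the lowest is named and the highest is not shown. Sdc1, filled, is the gene that passed the test, and Tmprss2, at -2.07, lies farthest from 0.

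The lists of cell type markers had median differences of unequal size, several of them near the median of -0.05 over all items. Which cells made the members was not measured. Of 6 basal epithelial markers 4 passed the test as lower (Krt5, Krt15, Itga6 and Lgals7), where 2.30% of all 16939 items did. The list median was -1.03. The log2 of the summed ratios of 5 of these markers ran from 3.46 to 3.71 on the controls. On the PB-NICD arrays it ran from 2.28 to 2.52. None of 6 smooth muscle markers passed the test, though all 6 had an unadjusted p below 0.05, and their median was -0.56. The log2 of the summed ratios of 2 of them was 3.26 to 3.83 on the controls and 2.84 to 3.03 on the PB-NICD arrays. None of 9 fibroblast markers passed, the median was -0.25, and the same sum over 4 ran from 3.63 to 3.75 on the controls and from 2.56 to 3.95 on the PB-NICD arrays. Of 6 luminal markers 1 passed as lower (Cd24a, n = 2 and 2). The Cd24a control mean of 5.57 lay in the class above 4, most of which was lower in PB-NICD. The luminal list median was -0.08, a sign that was not kept. It was 0.28 without PB-NICD 1 and ran from -0.57 to 1.95 over the alternatives. None of 5 prostate secretory markers passed, the median was -0.48, and the same sum over 3 was 11.04 to 12.60 on the controls and 9.07 to 10.84 on the PB-NICD arrays. Scaling between arrays turned the medians of the smooth muscle, fibroblast and secretory lists above 0, to 2.18, 0.17 and 4.83. None of 3 endothelial or 3 neutrophil markers tested passed, with medians of -0.07 and -0.04. The part of these cell types in the differences of Mmp7, Mmp2 and Timp4 was not tested.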

How the data were processed

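Prostate RNA from 4 control and 3 PB-NICD samples was hybridised against 1 reference RNA, with the sample in the red channel on all arrays and no dye swap, per the labels' protocols. The deposited intensity columns (median spot and background signals, unnormalised, and processed signals, which are background-subtracted and dye-normalised) come from Feature Extraction 10.7.3.1, per the file headers. The deposited LogRatio column holds log10 ratios, red channel over green, per the file headers, and was used to match the arrays with the authors' deposited log2 value table. That table's columns correlated with their own arrays at r = 0.849 to 0.895, red over green, with medians near 0. With each spot centred on its mean over the arrays, r was 0.51 to 0.712 with the own array. With any other array it was at most 0.358. Its normalisation method, not given in the sources used here, is unknown. The other deposited columns, flags of 0 or 1, mark spots above background, saturated or outlying.

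Background was corrected with normexp (offset 50), followed by loess within arrays in limma 3.58.1 under R 4.3.3. Outlier spots were set to missing and spots averaged per probe. A probe was tested if well above background in the sample channel on at least 3 arrays with at least 2 values per group, and the brightest probe per gene was used. The offset draws dim ratios together. The fit (lmFit, eBayes, group only, two-sided) covered 16939 items with Benjamini-Hochberg adjustment and a threshold of 0.05. Accessions were matched without versions to the RefSeq table of GRCm38.p6: 24375 probes received a symbol and 16799 did not. The number of arrays limits the precision. The fit was tested on simulated data. The members, lists and tests were chosen with earlier results of these data known. Outside the members, the text names in each list every gene past the threshold or else the gene of lowest p, with the highest and lowest difference (the highest of the substrates is not reported here), and the 3 genes nearest to each of 3 members. Alternatives covered background, normalisation, filters, outlier spots, probe choice, slide, replicate block and each array left out.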

Additional observations from a re-analysis of the deposited data

Results flagged for a closer look

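In 2 of 13 member probes 1 of the 4 controls lay far from the others, and chance alone flags about 1 in 20 such groups. For Mmp14, on its brighter probe with outlier spots kept, control 3 was high at -0.78 while the other 3 lay between -0.92 and -0.91. For Mmp11, control 1 was high at -1.35, from a spot not well above background, while the others lay between -1.60 and -1.58. Groups of 3 were not examined in this way.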

How the results depend on the processing

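All items called numbered 458 (69 higher, 389 lower), the other protease genes 1 and the members 1. In that order the counts were 1421 (706 higher, 715 lower), 7 and 1 without background subtraction, 1133 (496 and 637), 6 and 1 with processed signals, and 3517 (1366 and 2151), 16 and 3 in the authors' deposited values. They were 1, 0 and 0 with median centring in place of loess, 26, 0 and 0 with scaling between arrays, and 288 for all items in the sample channel alone. With the slide as a fixed block they were 1388 and 6 and as a random block 964 and 3 for all items and protease genes. Within slide 1 these were 2043 and 11, and within slide 2 they were 953 (389 and 564) and 7, with 2 members. With outlier spots kept, 638 items, 2 protease genes and 2 members passed. An offset of 10 and the mean of the tested probes each left 0 members. Leaving out 1 array gave 190 to 1169 items, 0 to 7 protease genes and 0 to 2 members, the highest without PB-NICD 1 (555 higher, 614 lower). Scaling between arrays turned the Mmp7 difference to 1.21. With the replicate block the counts were 159, 0 and 0, but the numbers do not pair the samples: same-numbered samples' deviations correlated at 0.35, -0.38 and 0.26. Alternatives that keep outlier spots together with another choice were chosen after seeing the data. Dim sample signals limit Mmp3, Mmp11 and the second Mmp9 probe. The causes of these shifts were not tested.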
